A study of Mus musculus with 12 samples.

Results

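Wheel running was accompanied by the same direction of change in both labelled genotypes for 8 genes of mouse extensor digitorum longus (EDL) muscle, which lies in the lower leg and is made up mostly of fast-twitch fibers. The genes were Rhob, Lrrc8a, Notch4, Smtnl1 and Myo18b, which were higher in trained muscle, and Rida, Tmem205 and Gmfg, which were lower. They were 8 of the 17752 genes in the table, picked by name because their levels differed between trained and sedentary libraries. The training values given here are therefore what chose the genes, and they are described without a test. Levels were given in FPKM (fragments per kilobase of transcript, scaled by depth). All 8 passed the filter of a 0.5 FPKM mean that left 12744 genes, and the lowest group mean of any of them was 1.03 FPKM, for Gmfg.

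RNA-seq was performed on EDL of male mice in 4 groups of 3 libraries. The labelled WT groups were littermates with a floxed Nrip1 allele and no Cre, either sedentary or given running wheels from 8 weeks of age. The labelled strNrip1-/- groups carried the same floxed allele with Cre driven by the muscle creatine kinase promoter, which is active in striated muscle fibers and not in the other cells of the muscle, and were likewise sedentary or trained. Training was voluntary running for 8 weeks, and the muscles came from mice kept apart from the exercise tests. Nrip1 encodes RIP140, a corepressor of nuclear receptors. The study asked how loss of RIP140 from muscle and endurance training each bear on the muscle transcriptome.

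Nrip1 itself was higher, not lower, in the libraries labelled strNrip1-/-. Its level was 2.53 to 4.76 FPKM in the 6 labelled WT libraries and 14.9 to 20.7 FPKM in the 6 labelled strNrip1-/- libraries, a log2 difference of 2.11 ± 0.14 (SE; limma adjusted p = 8.19e-06). The deleted exon holds the coding sequence, and a value for the whole gene does not tell the deleted exon from the rest, so the genotypes are called labelled WT and labelled strNrip1-/- throughout. The spacing of low values corresponded to 20.3 to 29.7 M fragments per library (M, mega). At this depth the estimated number of fragments behind a value ran from 8424 to 16965 for Myo18b, from 852 to 2112 for Rhob and from 833 to 2297.5 for Smtnl1. Notch4 rested on 377 to 1052 fragments, Lrrc8a on 221 to 621, Rida on 171 to 306, Tmem205 on 91.0 to 167 and Gmfg on 6.96 to 19.3. The markers of muscle fibers went with the label of a fast muscle, with 8 of 8 fast myofiber markers detected and their summed level 95546 to 150322 FPKM, against 57.9 to 563 FPKM for 7 slow myofiber markers.

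The 8 genes belong to different parts of the muscle. Rhob encodes a small GTPase, a molecular switch that acts on the assembly of actin, and its RNA is made rapidly after stimulation. LRRC8A is the obligate subunit of the volume-regulated anion channel, which lets chloride and organic osmolytes leave a swollen cell. Notch4 is a Notch receptor of the endothelium, smoothelin-like 1 and myosin XVIIIB are proteins of the contractile apparatus, RIDA removes reactive enamine and imine intermediates made by pyridoxal phosphate enzymes, and GMFG is a cofilin relative that takes apart actin branches made by the Arp2/3 complex. Less is known of TMEM205, a small protein with several membrane spans.

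Across all genes tested, no gene was called for training in either labelled genotype. The call required an adjusted p under 0.05 with limma and a fold change above 1.2. The count was 0 of 12744 (0%) in labelled WT, where 1061 genes had an unadjusted p under 0.05, and 0 of 12744 (0%) in labelled strNrip1-/-, where 1544 did. The smallest adjusted p over all genes was 0.059 in labelled WT and 0.062 in labelled strNrip1-/-. Averaged over the labelled genotypes, 15 genes (0.118%) were called for training, 10 higher and 5 lower, and all 8 genes described here were among them. The other 7 were Fndc5, Nfkbia, Cebpd, Ddit4, Apom, Col1a1 and Cxcl1, which are named for completeness after their values were seen. Because the 8 genes were chosen on these contrasts, nothing is read from their place among the calls.

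The groups of single libraries separated for each of the 8 genes. Trained libraries lay above sedentary libraries in each labelled genotype for 5 of the 8, as they did for 140 of the 12744 tested genes (1.1%). They lay below in each labelled genotype for the other 3, as for 106 tested genes (0.832%). All 6 trained libraries lay above all 6 sedentary libraries for the same 5, against 48 tested genes (0.377%), and below for the same 3, against 53 (0.416%). The choice of the genes fixed these counts. The labelled genotypes did not overlap in trained muscle for Rhob, Notch4, Smtnl1 and Rida, nor in sedentary muscle for Myo18b and Tmem205. The share of all genes that separated by genotype in this way was not counted. Such differences within a training state also draw in part on the contrasts that chose the genes, so nothing is read from them. The training difference of the median tested gene was 0.0017 on the log2 scale in labelled WT and 0.0090 in labelled strNrip1-/-.

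**Figure D1:**
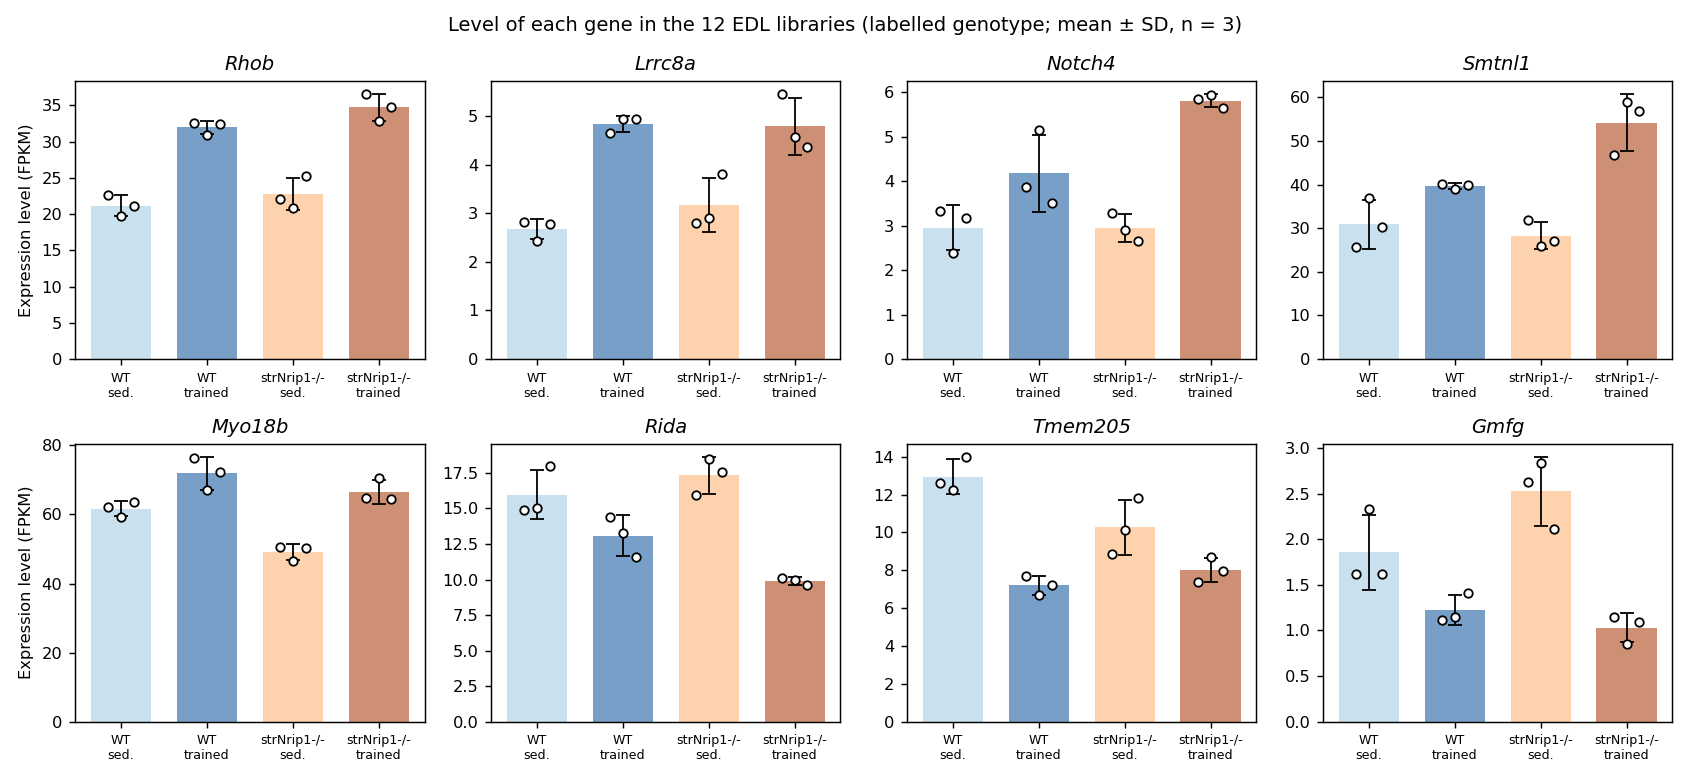
Expression level in FPKM (y axis) of the 8 genes in the 4 labelled groups (x axis; sed., sedentary); bars are means, error bars are SD over 3 libraries and points are single libraries. The trained libraries lie above the sedentary libraries for Rhob, Lrrc8a, Notch4, Smtnl1 and Myo18b, and below them for Rida, Tmem205 and Gmfg.

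Rhob showed the most even difference. The gene lies on chromosome 12 at chr12:8497661-8500009, minus strand (GRCm38), and is made of 1 exon. Its level was 22.6, 19.8 and 21.1 FPKM in the labelled WT sedentary libraries and 32.6, 30.9 and 32.4 FPKM in the labelled WT trained libraries. In labelled strNrip1-/- it was 22.1, 20.9 and 25.2 FPKM in sedentary and 36.5, 32.9 and 34.7 FPKM in trained libraries. The lowest trained library stood 5.67 FPKM above the highest sedentary one, over both genotypes. The ratio of group means was 1.51 in labelled WT and 1.52 in labelled strNrip1-/-, and the log2 differences were 0.59 ± 0.08 and 0.60 ± 0.08 (SE). Among the 12744 signed differences, ordered from the most positive, it had rank 208 in labelled WT and rank 199 in labelled strNrip1-/-. The difference between the genotypes in the training effect, 0.02 ± 0.12, changed sign in 9 of 24 alternative analyses.

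Lrrc8a, which carries the pore of the volume-regulated anion channel, is at chr2:30237715-30263790 on the plus strand. Its level was 2.81, 2.44 and 2.77 FPKM in labelled WT sedentary muscle and 4.64, 4.94 and 4.93 FPKM in labelled WT trained muscle. The labelled strNrip1-/- libraries had 2.80, 2.89 and 3.80 FPKM when sedentary and 5.44, 4.56 and 4.36 FPKM when trained. The labelled WT trained libraries were close together, with an SD of 0.167 FPKM, while sedentary replicate 3 of labelled strNrip1-/- lay nearest to the trained libraries. Group means differed by a ratio of 1.81 in labelled WT and 1.51 in labelled strNrip1-/-. The log2 differences were 0.75 ± 0.12 and 0.53 ± 0.12, and the level of the labelled genotypes overlapped in both sedentary and trained muscle.

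Rhob and Lrrc8a were also each other's near match. Over the 12 libraries, Pearson's r between their log2 levels was 0.96, and after removal of the group means it was 0.80, the highest of the 28 pairs among the 8 genes. Of all tested genes, the 2 most like Rhob were Nfkbia (r = 0.97), which encodes an inhibitor of NF-κB, and Lrrc8a. Those most like Lrrc8a were Rhob and Depp1 (r = 0.94). Depp1 differed by 1.37 in labelled WT and 1.03 in labelled strNrip1-/- on the log2 scale, and Nfkbia by 0.70 and 0.62. These correlations are over 12 libraries that share the training split, and they carry no test.

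The sequence before the gene start is shown for Rhob and Lrrc8a, whose levels were correlated within groups, and beside them for Notch4 and Smtnl1, which were higher in trained muscle but had a residual r with Rhob of -0.03 and -0.56. Promoter sequence was found for 6 of the 8 genes in RefSeq (GRCm38.p6). Bases up to the annotated gene start are printed 5′ to 3′ on the gene's strand, for Rhob chr12:8500010-8500259 (minus strand), for Lrrc8a chr2:30237519-30237714 (plus strand), for Notch4 chr17:34564045-34564267 (plus strand) and for Smtnl1 chr2:84822653-84822902 (minus strand). Capitals mark matches to the cAMP response element TGACGTCA, the CCAAT box, the GC box GGGCGG, the TATA box TATAAA or the CArG box, each searched on both strands.
Rhob: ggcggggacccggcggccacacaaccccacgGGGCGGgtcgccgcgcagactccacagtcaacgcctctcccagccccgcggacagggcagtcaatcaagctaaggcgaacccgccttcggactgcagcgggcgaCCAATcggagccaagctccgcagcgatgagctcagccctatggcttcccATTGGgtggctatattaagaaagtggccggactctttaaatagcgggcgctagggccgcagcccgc
Lrrc8a: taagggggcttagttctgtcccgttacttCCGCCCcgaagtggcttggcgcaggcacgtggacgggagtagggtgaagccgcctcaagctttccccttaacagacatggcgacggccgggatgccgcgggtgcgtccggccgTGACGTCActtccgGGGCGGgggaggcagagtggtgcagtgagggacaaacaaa
Notch4: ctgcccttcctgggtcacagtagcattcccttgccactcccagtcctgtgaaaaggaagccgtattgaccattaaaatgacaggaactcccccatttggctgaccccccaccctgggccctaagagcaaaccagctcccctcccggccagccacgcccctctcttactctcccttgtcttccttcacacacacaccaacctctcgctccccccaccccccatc
Smtnl1: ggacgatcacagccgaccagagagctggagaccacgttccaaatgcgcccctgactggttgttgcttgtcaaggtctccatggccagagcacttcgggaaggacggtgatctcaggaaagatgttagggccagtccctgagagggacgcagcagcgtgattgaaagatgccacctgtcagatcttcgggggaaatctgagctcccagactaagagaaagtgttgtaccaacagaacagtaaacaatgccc
The Lrrc8a stretch held 1 cAMP response element and 2 GC boxes, and the Rhob stretch held 2 CCAAT boxes and 1 GC box. The Notch4 and Smtnl1 stretches held none of these letters. Of the stretches not printed, both from genes lower in trained muscle, that of Gmfg held 2 GC boxes and that of Tmem205 held no match. Among all 32851 RefSeq promoters, over the 250 bases before the start, 1.55% held the cAMP response element, 33.8% a CCAAT box, 32.7% a GC box, 12.4% a TATA box and 1.47% a CArG box. The share of G and C was 66.0% for Rhob, 64.3% for Lrrc8a, 59.2% for Notch4, 57.9% for Gmfg, 57.2% for Tmem205 and 54.0% for Smtnl1. All lay above the median of 52.4% over all promoters, which was taken over the full 250 bases while some of these stretches were shorter. A match of letters is not evidence of binding.

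Notch4, the endothelial Notch receptor, is at chr17:34564268-34588503 on the plus strand. Its level was 3.32, 2.37 and 3.17 FPKM in labelled WT sedentary libraries and 3.87, 5.16 and 3.50 FPKM in labelled WT trained libraries. The labelled strNrip1-/- libraries had 3.29, 2.89 and 2.65 FPKM when sedentary and 5.85, 5.93 and 5.65 FPKM when trained. The sedentary groups of both labelled genotypes overlapped, while the trained labelled strNrip1-/- libraries all lay above the trained labelled WT libraries. The separation within labelled WT was narrow, from 3.32 to 3.50 FPKM. Trained over sedentary, the ratio of means was 1.41 in labelled WT and 1.97 in labelled strNrip1-/-, with log2 differences of 0.43 ± 0.15 and 0.88 ± 0.15. Leaving out trained replicate 2 of labelled WT took the first of these to 0.29, and leaving out sedentary replicate 2 took it to 0.30.

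Endothelial markers were set beside Notch4, since a different number of endothelial cells and a different amount of RNA per cell cannot be told apart in bulk muscle. The summed level of 15 markers was 200.0 to 207 FPKM in labelled WT sedentary, 184 to 205 FPKM in labelled WT trained, 216 to 247 FPKM in labelled strNrip1-/- sedentary and 226 to 238 FPKM in labelled strNrip1-/- trained libraries. Trained and sedentary ranges overlapped in each labelled genotype. The markers' median training difference was 0.0090 on the log2 scale in labelled WT and 0.10 in labelled strNrip1-/-, against 0.43 and 0.88 for Notch4. Of 7 other Notch receptors and ligands tested, 0 were called for training in either genotype, with medians of -0.15 and 0.10, and of 20 processing enzymes, nuclear partners and targets 0 were called, with medians of -0.05 and 0.05. The genes most like Notch4 over the 12 libraries were Peli1 (r = 0.91), a ubiquitin ligase, and Hk2 (r = 0.89), the muscle hexokinase that traps glucose.

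Smtnl1 encodes a smoothelin-like protein that binds myosin phosphatase and is phosphorylated by cyclic nucleotide-dependent kinases. It is at chr2:84811176-84822652 on the minus strand. Its level was 25.6, 36.9 and 30.2 FPKM in labelled WT sedentary libraries and 40.2, 39.0 and 39.8 FPKM in labelled WT trained libraries. Among labelled strNrip1-/- libraries it was 31.8, 26.0 and 27.0 FPKM when sedentary and 46.8, 59.0 and 56.8 FPKM when trained. The labelled WT sedentary libraries were spread, with an SD of 5.66 FPKM, and sedentary replicate 2 came within 2.11 FPKM of the lowest trained library. The trained labelled strNrip1-/- libraries were the highest of all 12. Trained over sedentary, the means had a ratio of 1.28 in labelled WT and 1.91 in labelled strNrip1-/-, with log2 differences of 0.37 ± 0.13 and 0.92 ± 0.13. The value in labelled WT was 0.24 without sedentary replicate 1 and 0.50 without sedentary replicate 2. The difference between the genotypes in the training effect, 0.55 ± 0.19, comes from the contrasts that chose the genes.

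Of 16 tested smoothelins, phosphatase subunits and light chain kinases, 0 were called for training in either labelled genotype, with medians of 0.02 and 0.06 on the log2 scale. The genes most like Smtnl1 were Phlpp1 (r = 0.88), a protein phosphatase, and Myh1 (r = 0.87), the myosin heavy chain of type 2X fibers. Myh1 differed by 0.54 in labelled WT and 0.71 in labelled strNrip1-/- on the log2 scale.

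Myo18b, an unconventional myosin needed for the assembly of sarcomeres, was the most abundant of the 8 genes per length. It is at chr5:112688876-112896362 on the minus strand. Its level was 62.3, 59.3 and 63.5 FPKM in labelled WT sedentary libraries and 76.4, 67.0 and 72.3 FPKM in labelled WT trained libraries. For labelled strNrip1-/- the values were 50.7, 46.6 and 50.3 FPKM when sedentary and 64.6, 70.5 and 64.6 FPKM when trained. The labelled strNrip1-/- sedentary libraries were the lowest of all 12, and the trained libraries of both labelled genotypes overlapped. The ratio of group means was 1.17 in labelled WT and 1.35 in labelled strNrip1-/-, the smallest of the 5 higher genes in each. The log2 differences were 0.22 ± 0.07 and 0.43 ± 0.07, and the second was 0.27 once trends with GC content and transcript length were removed. At 8280 nt with 58.0% GC, the longest coding transcript of Myo18b is long and rich in GC. Tested genes with over 55% GC had a median training difference of -0.04 in labelled WT and 0.08 in labelled strNrip1-/-, and those over 4000 nt of 0.05 and 0.03.

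Of 13 other unconventional myosins tested, 0 were called for training, with medians of 0.05 in labelled WT and -0.03 in labelled strNrip1-/-. Of 26 sarcomere scaffold and assembly genes, 0 were called as well. Their medians were 0.06 and 0.16, and 9 of them were higher at an unadjusted p under 0.05 in labelled strNrip1-/-, against 867 of all 12744 genes. Lmod2, which lengthens thin filaments, differed there by 0.95 ± 0.22 (limma adjusted p = 0.20), and Ttn, the titin gene, by 0.34 ± 0.09 (limma adjusted p = 0.21). The genes most like Myo18b over the 12 libraries were Nfe2l2 (r = 0.92), the NRF2 regulator of antioxidant genes, and Dcaf6 (r = 0.92).

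Rida, the enamine and imine deaminase, is at chr15:34484021-34495255 on the minus strand. Its level was 14.9, 15.0 and 18.0 FPKM in labelled WT sedentary libraries and 14.4, 13.3 and 11.6 FPKM in labelled WT trained libraries. In labelled strNrip1-/- it was 15.9, 18.5 and 17.6 FPKM when sedentary and 10.1, 9.98 and 9.60 FPKM when trained. The labelled WT groups were 0.469 FPKM apart, while in labelled strNrip1-/- the gap was 5.80 FPKM and the trained libraries had an SD of 0.275 FPKM. The ratio of group means was 0.820 in labelled WT and 0.572 in labelled strNrip1-/-. The log2 differences were -0.28 ± 0.10 and -0.77 ± 0.10. Of 19 tested pyridoxal phosphate enzymes of amino acid metabolism, 0 were called for training in either genotype, with medians of 0.06 and -0.05. At an unadjusted p under 0.05, 0 were higher and 2 lower in labelled WT, against 515 and 546 of all 12744 genes. In labelled strNrip1-/- 2 were higher and 5 lower, against 867 and 677. Sds differed by -1.18 in labelled WT and -1.19 in labelled strNrip1-/-, and Agxt by -1.01 and -1.22. Both were low, with group means of 1.19 to 3.59 FPKM for Sds and 0.702 to 2.39 FPKM for Agxt. The hepatocyte markers described below had medians of -1.22 and -1.40, and the part of liver transcripts in Sds and Agxt was not tested.

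Tmem205 is at chr9:21921008-21927556 on the minus strand. Its level was 12.6, 12.2 and 14.0 FPKM in labelled WT sedentary libraries and 7.70, 6.71 and 7.21 FPKM in labelled WT trained libraries. Labelled strNrip1-/- libraries had 8.86, 10.1 and 11.8 FPKM when sedentary and 7.40, 8.68 and 7.96 FPKM when trained. The sedentary libraries of labelled strNrip1-/- all lay below those of labelled WT, and the trained libraries of both overlapped. Within labelled strNrip1-/- the groups were only just apart, from 8.68 to 8.86 FPKM. The ratio of group means was 0.556 in labelled WT and 0.781 in labelled strNrip1-/-, with log2 differences of -0.80 ± 0.11 and -0.33 ± 0.11. The second was -0.16 once libraries were rescaled to the same FPKM sum, a scaling under which the median of all genes moved to 0.16 in that genotype.

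Transcripts typical of liver were present in all 12 EDL libraries and moved with Rida and Tmem205. A list of 15 hepatocyte markers, such as Alb (albumin) and Ttr (transthyretin), was drawn up after the values were seen. None of the 15 was at 0 in all libraries, and their most abundant member, Alb, averaged 166 FPKM. The summed level was 552 to 950 FPKM in labelled WT sedentary, 149 to 620 FPKM in labelled WT trained, 597 to 968 FPKM in labelled strNrip1-/- sedentary and 220 to 397 FPKM in labelled strNrip1-/- trained libraries. All 15 had lower values in trained muscle at an unadjusted p under 0.05 in both labelled genotypes, with medians of -1.22 and -1.40 on the log2 scale, and 0 of 15 were called. Trained replicate 1 of labelled WT stood apart from its group at 620 FPKM, inside the sedentary range.

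**Figure D2:**
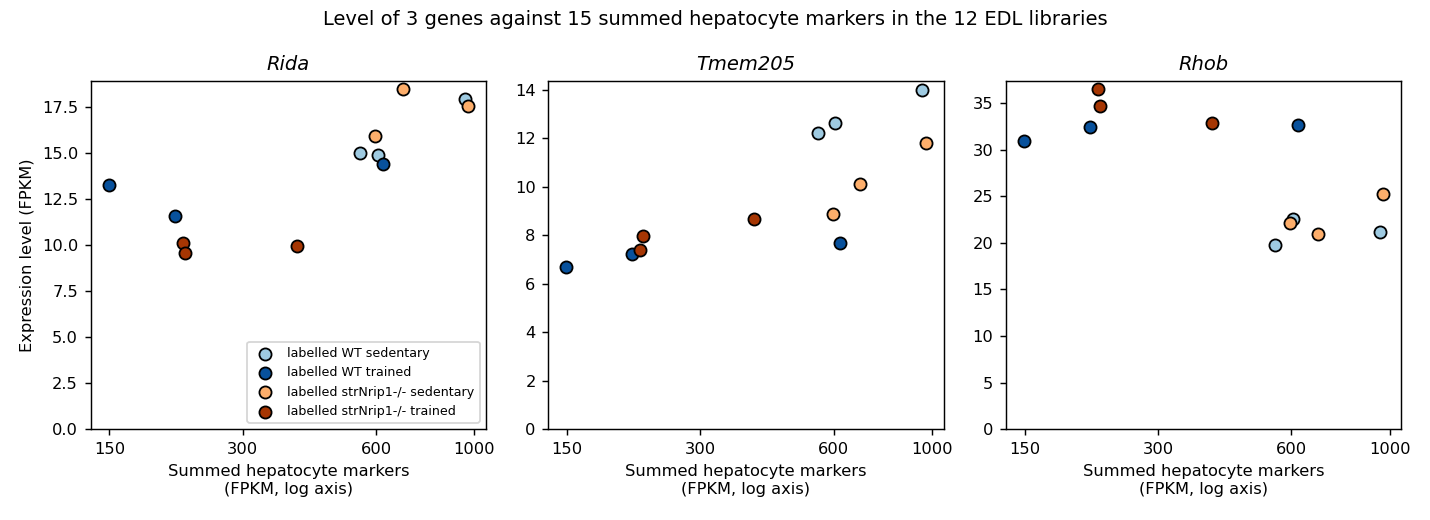
Level in FPKM (y axis) of Rida, Tmem205 and Rhob in each library against the summed level of 15 hepatocyte markers in FPKM (x axis, log scale), with points colored by labelled group. One labelled WT trained library lies at 620 FPKM among the sedentary libraries on the x axis, where Rida is at 14.4, Tmem205 at 7.70 and Rhob at 32.6 FPKM.

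In that library Rida was 14.4 FPKM, the highest of its group and next to the lowest sedentary value of 14.9. Tmem205 was 7.70 FPKM there, also the highest of its group, and below all 6 sedentary libraries. The genes most like Rida over the 12 libraries were Cyp17a1 (r = 0.92) and Cyb5a (r = 0.91), and those most like Tmem205 were Masp2 (r = 0.92) and Ugt2b34 (r = 0.90). Masp2 and Ugt2b34, a complement protease and a glucuronosyltransferase, are made chiefly in liver. With the mean log2 level of the hepatocyte list as a covariate, chosen after seeing the data, the difference of Rida was -0.13 in labelled WT and -0.61 in labelled strNrip1-/-. That of Tmem205 was -0.60 and -0.11. Rhob and Lrrc8a kept values of 0.63 and 0.78 in labelled WT and of 0.65 and 0.57 in labelled strNrip1-/- under this covariate, and Smtnl1 kept 0.38 and 0.94. Myo18b had 0.33 and 0.56, Notch4 0.34 and 0.77, and Gmfg -0.65 and -1.21, in labelled WT and labelled strNrip1-/-. The covariate was itself lower in trained muscle, so it shares variation with training, and the part of liver transcripts in the Rida and Tmem205 differences was not tested otherwise. Without trained replicate 1 of labelled WT, the difference in that genotype was -0.35 for Rida and -0.85 for Tmem205.

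Gmfg, at chr7:28437447-28448233 on the plus strand, was the lowest of the 8 genes. GMFG is found mainly in blood and immune cells. Its level was 1.62, 2.33 and 1.62 FPKM in labelled WT sedentary libraries and 1.11, 1.15 and 1.41 FPKM in labelled WT trained libraries. In labelled strNrip1-/- it was 2.63, 2.84 and 2.11 FPKM when sedentary and 1.15, 0.852 and 1.09 FPKM when trained. The labelled genotypes overlapped in both sedentary and trained muscle. Group means had a ratio of 0.659 in labelled WT and 0.408 in labelled strNrip1-/-, with log2 differences of -0.44 ± 0.16 and -0.98 ± 0.16. With at most 19.3 estimated fragments behind each value the precision was limited, and the second difference ran from -0.79 to -1.22 as the pseudocount went from 1 to 0.1. A pseudogene of Gmfg exists, so reads may be shared with it.

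Leukocyte markers were set beside Gmfg. The summed level of 16 markers was 89.7 to 99.5 FPKM in labelled WT sedentary and 72.9 to 85.7 FPKM in labelled WT trained libraries, which did not overlap. It was 83.2 to 114 FPKM in labelled strNrip1-/- sedentary and 75.0 to 88.0 FPKM in labelled strNrip1-/- trained libraries, which did. The most abundant marker, Cd74, had means of 39.6 FPKM in labelled WT sedentary and 27.0 FPKM in labelled WT trained muscle, so it weighs heavily in the sum. At an unadjusted p under 0.05, 1 marker (Laptm5) was higher and 2 (Cd52 and Cd74) were lower in labelled WT, against 515 and 546 of all 12744 genes. In labelled strNrip1-/- 0 were higher and 2 (Cd52 and Tyrobp) were lower, against 867 and 677. Of the 15 markers tested, 0 were called for training, with medians of -0.13 and -0.18 on the log2 scale. Their part in the Gmfg difference was not tested. Of 9 other ADF-homology proteins, the family of cofilin, 0 were called for training, with medians of -0.03 and -0.15, and of 15 genes of the Arp2/3 complex and its activators 0 were called, with medians of -0.02 and -0.04. The genes most like Gmfg were B2m (r = 0.91), the light chain of class I major histocompatibility molecules, and Ociad2 (r = 0.90). B2m differed by -0.27 in labelled WT and -0.47 in labelled strNrip1-/-.

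**Figure D3:**
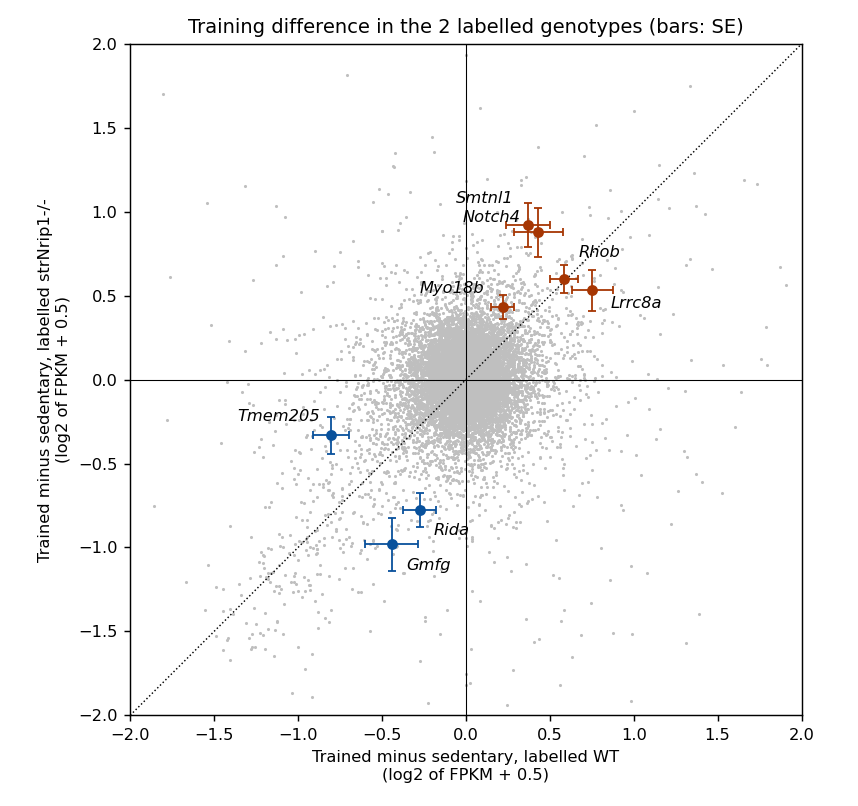
Trained minus sedentary difference on the log2(FPKM + 0.5) scale in labelled WT (x axis) and labelled strNrip1-/- (y axis) for the tested genes in gray and the 8 genes in color, with bars of 1 SE; the dotted line marks equal differences and 36 genes lie outside the axes. Rhob sits on the line at 0.59 and 0.60, Smtnl1 and Notch4 lie above it, and Tmem205, at -0.80 and -0.33, lies off it toward the labelled WT axis.

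The estimated training difference was larger in size in labelled strNrip1-/- for Notch4, Smtnl1, Myo18b, Rida and Gmfg, and in labelled WT for Lrrc8a and Tmem205. Only values and SEs are given for the difference between the genotypes, since an interval set against 0 would act as a test. The difference between the genotypes was 0.45 ± 0.21 on the log2 scale for Notch4, 0.21 ± 0.10 for Myo18b, -0.50 ± 0.14 for Rida and -0.54 ± 0.22 for Gmfg. It was 0.47 ± 0.15 for Tmem205. For Lrrc8a it was -0.22 ± 0.17, and -0.10 without sedentary replicate 3 of labelled strNrip1-/- and -0.03 after rescaling to the same FPKM sum. These values are given without a test, because each is made from the contrasts that chose the genes.

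Across the 12 lists of families and partners of the 8 genes, which held 177 tested genes, 8 were higher and 7 lower after training at an unadjusted p under 0.05 in labelled WT, and 21 were higher and 12 lower in labelled strNrip1-/-. The corresponding counts over all 12744 genes were 515 and 546 in labelled WT and 867 and 677 in labelled strNrip1-/-.

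A test was possible for the labelled genotype averaged over training states. In this balanced design its estimate is independent of both training contrasts, although the spread between libraries enters both. Of all tested genes, 1122 (8.8%) were called in this comparison, 624 higher and 498 lower in labelled strNrip1-/-. Rescaling to the same FPKM sum made this 429 higher and 524 lower, and rescaling to the same sum of nuclear genes 827 and 240. Of the 8 genes, 0 were called with limma and 1, Myo18b, had an unadjusted p under 0.05, as 3072 of all 12744 tested genes did. Myo18b was lower in labelled strNrip1-/- by -0.22 ± 0.05 (limma adjusted p = 0.016), with a fold of 1.16 that did not reach 1.2. Its exact two-sided permutation p, over 400 regroupings within training states, was 0.010, where the smallest possible is 0.005. The adjusted p for Myo18b was 0.083 after rescaling to the same FPKM sum and 0.30 after rescaling to the same sum of nuclear genes.

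The 95% intervals of the other 7 genes included 0 in this comparison. Notch4 differed by 0.23 on the log2 scale (95% interval -0.0031 to 0.45, limma adjusted p = 0.21) and Smtnl1 by 0.16 (-0.04 to 0.37, limma adjusted p = 0.33). Rhob differed by 0.11 (-0.02 to 0.24, limma adjusted p = 0.30), and its interval excluded a fold of 1.2 in either direction. Rida differed by -0.13 (-0.29 to 0.03, limma adjusted p = 0.30). Lrrc8a, Gmfg and Tmem205 differed by 0.09, 0.10 and -0.09, with limma adjusted p-values of 0.60, 0.67 and 0.53. Leaving out single libraries changed no sign, and it moved the differences of Rhob, Lrrc8a, Smtnl1, Tmem205 and Gmfg by over 1.5 times. Notch4 ran from 0.16 to 0.30 and Rida from -0.17 to -0.09. Without sedentary replicate 3 of labelled strNrip1-/-, Lrrc8a was at 0.03, Gmfg at 0.15, Tmem205 at -0.14 and Rhob at 0.07. Lrrc8a was at 0.05 without trained replicate 1 and Tmem205 at -0.04 without sedentary replicate 1 of the same genotype. Gmfg ran from 0.06 to 0.17 as each sedentary library of labelled WT was left out and was at 0.06 without sedentary replicate 2 of labelled strNrip1-/-, and Smtnl1 was at 0.10 without sedentary replicate 1 of labelled WT. The exact permutation p-values of these 7 ran from 0.075 for Rhob to 0.465 for Gmfg.

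**Figure D4:**
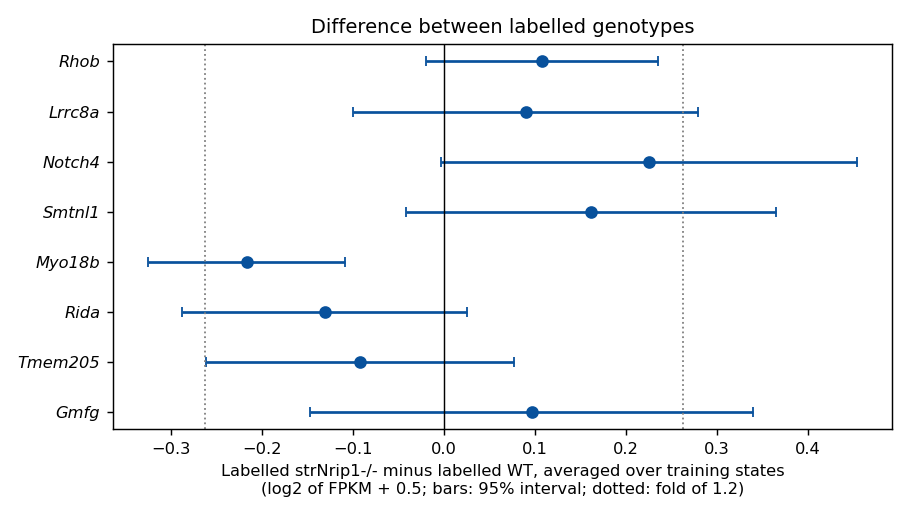
Labelled strNrip1-/- minus labelled WT, averaged over sedentary and trained muscle, on the log2(FPKM + 0.5) scale (x axis) for the 8 genes (y axis); points are estimates, bars are 95% intervals and dotted lines mark a fold of 1.2. The interval of Myo18b, around -0.22, is the only one that leaves out 0.

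Over the 12 lists of families and partners, 11 genes were called higher and 12 lower of 177 for labelled genotype, where 8.8% of all genes were called. Among 26 sarcomere genes, 2 were higher and 6 lower in labelled strNrip1-/-. The largest changes were in Myom3, an M-band protein, at 0.99 ± 0.11, Actn3, the α-actinin of fast fibers, at -0.83 ± 0.06, Actn2, the α-actinin of all fibers, at 0.65 ± 0.10, and Mybpc2, the fast myosin-binding protein C, at -0.53 ± 0.06 (limma adjusted p = 0.00019, 1.4e-05, 0.0014 and 0.00015). Of 13 other unconventional myosins, 0 were called. Around Smtnl1, 1 of 16 genes was higher and 1 lower. Ppp1cc, a catalytic subunit of protein phosphatase 1, rose by 0.41 ± 0.05 (limma adjusted p = 0.00070) and Mylk2, the skeletal myosin light chain kinase, fell by 0.57 ± 0.07 (limma adjusted p = 0.000495).

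Among 19 pyridoxal phosphate enzymes, 4 were higher and 1 lower in labelled strNrip1-/-. The aspartate aminotransferases Got1 and Got2 were higher by 0.69 ± 0.05 and 0.51 ± 0.07 and the alanine aminotransferase Gpt by 0.52 ± 0.05, while Gpt2, its mitochondrial relative, was lower by -0.45 ± 0.10 (limma adjusted p = 2.7e-05, 0.0012, 0.00015 and 0.012). The fifth was Bcat2. Around Lrrc8a, 0 of 2 other channel subunits tested and 2 of 12 cell volume genes were called, the water channels Aqp1 at 0.36 ± 0.08 and Aqp4 at -0.60 ± 0.15 (limma adjusted p = 0.019 and 0.023). For training, the 2 subunits and the 12 volume genes gave 0 calls, with medians of 0.07 and -0.0003 in labelled WT and of -0.12 and 0.19 in labelled strNrip1-/-.

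Dll4, an endothelial Notch ligand, was the 1 gene called for labelled genotype of 7 receptors and ligands, higher in labelled strNrip1-/- by 0.30 ± 0.07 (limma adjusted p = 0.022), and 0 of 20 other Notch pathway genes were. Among ADF-homology proteins, Twf2 was higher by 0.77 ± 0.10 and Cfl2, the muscle cofilin, lower by -0.28 ± 0.05 (limma adjusted p = 0.00070 and 0.0032), and 0 of 15 Arp2/3 genes were called.

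Over the 10 marker lists other than hepatocytes, 4 higher and 4 lower of 81 markers were called for labelled genotype, beside 8.8% over all genes. Of these, 3 of 15 endothelial markers were called, all higher in labelled strNrip1-/-, 1 of 8 smooth muscle and pericyte markers was called higher, and 4 of 8 fast myofiber markers were called lower. None of the slow myofiber, leukocyte, fibroblast, adipocyte, Schwann cell, tendon, blood and hepatocyte markers was called, with 0 in each list. For training, 0 markers were called with limma in any list. Of the 81 markers tested other than those of hepatocytes, 7 were higher and 7 lower at an unadjusted p under 0.05 in labelled WT, and 4 were higher and 3 lower in labelled strNrip1-/-. The fibroblast sum was 433 to 473 FPKM in labelled WT sedentary and 558 to 623 FPKM in labelled WT trained libraries, and overlapped in labelled strNrip1-/- at 474 to 577 and 470 to 551 FPKM. Of its 7 markers, 3 collagens (Col1a1, Col1a2 and Col3a1) were higher and 0 lower in labelled WT at an unadjusted p under 0.05. Sedentary and trained means there were 57.7 and 120 FPKM for Col1a1 and 91.2 and 157 FPKM for Col1a2. For Dcn, the most abundant marker, they were 232 and 238 FPKM. The Schwann cell sum was 75.8 to 111 FPKM in labelled WT sedentary and 49.9 to 65.8 FPKM in labelled WT trained libraries, and overlapped in labelled strNrip1-/-. The adipocyte sum was 12.4 to 25.5 FPKM in labelled WT sedentary and 35.1 to 76.9 FPKM in labelled WT trained libraries, and also overlapped in labelled strNrip1-/-. Its most abundant marker, Cfd, had means of 14.6 and 37.3 FPKM in labelled WT sedentary and trained muscle. The sums of smooth muscle and pericyte, tendon, blood, fast and slow markers overlapped between trained and sedentary libraries in each labelled genotype. The part of these cell types in the 8 genes' differences was not tested.

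Within groups, no other pair of the 8 genes reached the correlation of Rhob and Lrrc8a. Over the 12 libraries, Pearson's r among the 5 higher genes ran from 0.55 to 0.96, and among the 3 lower genes from 0.54 to 0.78. After removal of group means, r fell to between -0.64 and 0.80 over the 28 pairs, each over 12 libraries with 8 degrees of freedom. The lowest was between Lrrc8a and Smtnl1, and the highest after Rhob and Lrrc8a was 0.51, between Myo18b and Tmem205. Among the lower genes, Rida and Tmem205 had a residual r of 0.49, and Tmem205 and Gmfg of -0.63.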

How the data were processed

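EDL RNA was sequenced in 12 libraries as paired reads, with a kit that keeps no strand. The deposited values are FPKM per gene and library, made by the authors after quantification with Salmon 1.10.2 against mm10 and summing with tximport. The fold changes deposited by the authors as log2 values, and the adjusted p-values deposited from DESeq2 1.44.0, were not used. Annotation release and FPKM function are not given in the sources used here. Groups and replicate numbers came from the labels. The genes, lists and tests were chosen with earlier results of these data known.

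The 12744 of 17752 genes averaging 0.5 FPKM or more were fitted as log2(FPKM + 0.5) with limma 3.58.1 (R 4.3.3), 4 group means over all 12 libraries, a trended variance prior and two-sided tests with Benjamini-Hochberg adjustment. This scale understates changes of low genes. A call needed an adjusted p under 0.05 and a fold above 1.2. The fit was tested on simulated data. Depth was estimated from the spacing of low values in 1613 single-transcript genes, where 98.8% to 99.7% of values lay within 0.15 of a whole fragment, and it covers counting error only. Fragments per value use the longest coding transcript in GENCODE M21. Nothing states that libraries of a group came from separate cages or days, so p-values measure the spread between these libraries. No pair of libraries within a group shared an identical value above 0.

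Named genes were the 8 genes, the 2 genes most correlated with each, genes called in both genotypes (none), up to 4 called genes per family or pathway list, and Nrip1. Lmod2, Ttn, Fgg and the genes called for training on average were added after values were seen. So were Sds, Agxt and the markers Cd74, Cd52, Laptm5, Tyrobp, Col1a2, Col3a1, Dcn and Cfd. Lists covered families and partners of the 8 genes and markers of endothelium, leukocytes, smooth muscle and pericytes, fibroblasts, adipocytes, Schwann cells, tendon, blood, fast and slow myofibers and hepatocytes. The lists drawn up for Rhob are not reported here on their own. Alternatives changed the pseudocount, filter, scaling, weights, GC and length trends, replicate block and single libraries.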

Additional observations from a re-analysis of the deposited data

How the results depend on the processing

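The training differences of the 8 genes kept their direction in all 394 combinations of a value and an alternative analysis. In 24 of these the value moved by more than 1 SE of the main difference. The direction was largely fixed by the choice of the genes. Their trained and sedentary libraries did not overlap in either labelled genotype, so leaving out 1 library could not change a sign. Some alternatives, such as a change of the filter, return the main value unchanged. No gene of the 8 was called for labelled genotype under any alternative. The counts of genes called for training, 0 in each labelled genotype and 0 in both, were less stable. In labelled WT the count was 8 among genes of at least 5 FPKM, 1 after rescaling to the same sum, 2 after rescaling to the same nuclear sum, 4 after quantile normalization and 11 with array weights. In labelled strNrip1-/- it was 5, 150, 3, 0 and 13 under these settings, where 143 of the 150 were higher and the median of all genes stood at 0.16. In both genotypes it was 1 (Rhob) at 5 FPKM, 1 (Col1a1) at the same sum and 2 (Rhob and Nfkbia) with array weights. The calls of array weights included 3 of the 8 genes in labelled WT and 5 in labelled strNrip1-/-. Leaving out 1 library gave 0 to 30 genes in labelled WT, 0 to 4 in labelled strNrip1-/- and 0 to 1 in both. The 30 came without trained replicate 1 of labelled WT, the trained library of that genotype highest in hepatocyte markers, which also gave 3 in labelled strNrip1-/- and 1 (Fgg) in both. Without sedentary replicate 3 of labelled strNrip1-/- there were 2, 4 and 1 (Rhob). The labelled WT count was 1 without its sedentary replicate 1, 4 without its trained replicate 3 and 5 without trained replicate 3 of labelled strNrip1-/-. Deviations of same-numbered libraries from their group means had r from -0.10 to 0.24, with 5 of 18 pairs over 0.1. For differently numbered libraries r ran from -0.25 to 0.20. Replicate 2 of labelled WT sedentary, labelled WT trained and labelled strNrip1-/- sedentary had r of 0.16 to 0.24 with each other. The labels give replicate numbers but state no pairing, and a shared batch was not tested. A replicate block gave 4 calls in labelled WT and, with GC and length trends removed as well, 1. It gave 0 in labelled strNrip1-/-, and 4 of the 12 libraries correlated best with their own number. The cause of these shifts was not tested. Depth limits Gmfg most, and reads without molecular identifiers are not independent molecules.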
